A study of Bos taurus with 31 samples.

Results

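Genes read almost only in 1 library were picked out of the hepatic RNA-seq data of 31 lactating German Holstein cows. A gene was a member when it had at least 30 raw reads summed over all 31 libraries and at least 80% of these in 1 library, and gene families of transporters, cytochromes and similar were left out by 7 symbol prefixes (CYP, SLC, ABC, UGT, SULT, COL and HNRNP). The rule gave 78 members out of 24616 genes in the count table, or 0.503% of the 15494 genes with at least 30 reads. Without the prefixes there would have been 82. Of the 78 members, 59 carried a gene symbol and 19 carried only an Ensembl identifier.

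The cows received a ration with glyphosate residues (GLY) or a control ration (CON), each with a high (HC) or a low (LC) concentrate feed proportion, and each gave 1 liver sample taken by puncture biopsy. The groups were CON_HC (n = 8), CON_LC (n = 8), GLY_HC (n = 8) and GLY_LC (n = 7). The reads assigned to genes numbered 11675775 to 36675542 per library, with a median of 19781078. Levels are given as raw reads or as CPM, which is the count divided by the assigned reads of the library in units of 1000000, scaled by edgeR's TMM factors. Neither value is corrected for gene length, so levels are compared between cows and not between genes. A gene's reads in bulk tissue do not tell more cells of a type apart from more RNA per cell.

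A puncture biopsy of the liver holds mostly hepatocytes, with bile duct, vessel, immune and connective tissue cells. The small intestine, by contrast, is lined by enterocytes that carry digestive enzymes on a brush border and take up lipids and minerals, by mucus-secreting goblet cells and by scattered hormone-secreting cells. Below this lining lie smooth muscle and a nervous system of its own. Nerves outside the brain are wrapped by Schwann cells, and cartilage is built on large proteoglycans. These tissues have marker genes that hepatocytes use little or not at all.

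The liver label was met by all 31 libraries, in which 22 hepatocyte marker genes summed to a median of 223035 CPM and to 209544 CPM in GLY_LC cow 912, the library that held most members. Of these 22 genes, 5 were at their highest and 13 at their lowest of all libraries in cow 912, and their median difference from the other cows was -0.61 on the log2 scale. Among the 5 were the acute phase genes FGB (42249 CPM, median of the others 19951), FGG (37157, 13910), FGA (26701, 11075) and HP (19490, 277.6). Among the 13 were ALB (42897, 107020), TF (11225, 23341) and TTR (2416, 5308). The sum in cow 912 thus holds genes far above and far below the other cows. The members were spread unevenly over the libraries. The library of GLY_LC cow 912 held 73 of the 78 members (93.6%), CON_LC cow 941 held 2, and CON_LC cow 103, GLY_HC cow 159 and GLY_HC cow 154 held 1 each. The other 26 libraries held none. Cow 912 was ninth in depth with 24311393 assigned reads, and its TMM factor of 1.13 lay within the range of the other cows (0.922 to 1.14). This library also had the highest CPM of all 31 for 2390 of 15916 tested genes, or 15.02%, against a median of 2.49% and a second highest of 7.10% among the libraries.

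**Figure D1:**
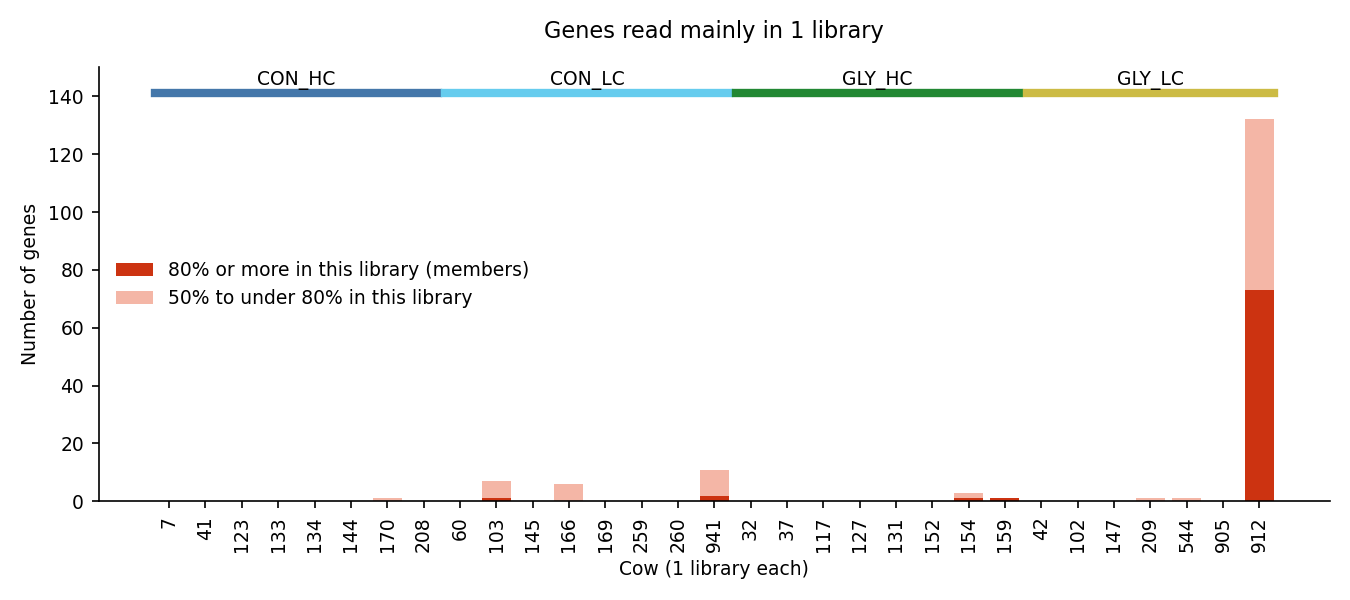
Number of genes (y axis) with 80% or more of their reads in a library (dark, members) or with 50% to under 80% (light), for each of the 31 cows (x axis, ordered by feeding group). GLY_LC cow 912 stands at 73 members and 59 further genes, and no other library holds more than 2 members.

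The 73 members in cow 912 added up to 45312 reads there, which was 0.186% of its assigned reads. They summed to 1655 CPM in cow 912 and to between 2.08 and 8.37 CPM in each of the other 30 libraries (median 3.97). The share in cow 912 had a median of 98.6%, and 36 of the 73 were above 99%. For 22 members no other library held a single read. A further 41 had 1 to 17 reads outside cow 912, and 10 had more than 17, of which 5 were read in all 30 other libraries. These figures are what the selection was made of, so they describe the members and were not tested.

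**Figure D2:**
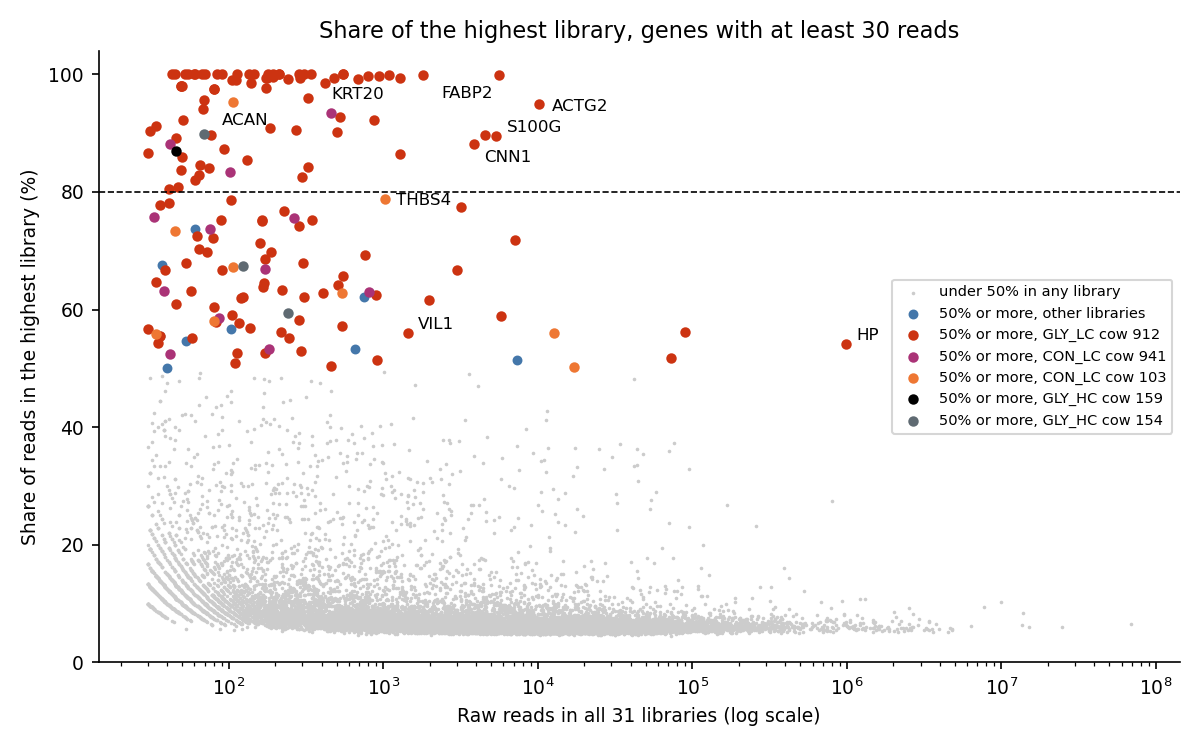
Each point is a gene with at least 30 reads: raw reads in all 31 libraries (x axis, log scale) against the share of these reads in its highest library (y axis, %). The dashed line marks 80%. Points above it are the members and the 4 genes left out by prefix, and most of them belong to GLY_LC cow 912, from genes with about 30 reads up to ACTG2 with 10201.

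The markers that gave this set its label were all in cow 912. FABP2 (ENSBTAG00000017045), which binds fatty acids inside enterocytes, had 5636 reads in cow 912 and 10 in all other cows together. Its share was 99.8% (exact 95% binomial interval 99.7% to 99.9%, counting error only). In CPM it stood at 206 in cow 912, the highest other value was 0.163 in GLY_HC cow 154, and the median of each of the 4 groups was 0. ALPI (ENSBTAG00000004519), the intestinal alkaline phosphatase of the brush border, had 553 reads in cow 912 and none in the other 30 libraries. KRT20 (ENSBTAG00000007794), a keratin of mature gut epithelium, had the same count of 553 reads, again with none elsewhere. Set against a floor of 3 reads over the 30 other libraries together, the level in cow 912 was at least 4158-fold higher for each of these 2 genes. MUC13 (ENSBTAG00000010382), a mucin in the cell membrane of the gut lining, had 686 reads in cow 912 and 5 elsewhere, and its CPM was 25.05 against a highest other value of 0.088. The groups overlapped for all 4 genes, since the other 6 cows of GLY_LC lay with the remaining groups at or close to 0.

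After their values were seen, 43 members of cow 912 with a symbol were sorted into 9 role groups. These occur in the wall of the intestine, from its lining to its muscle and neurons. Several groups were named for the gut, so their match to it was set by the sorting and is no test. A further 12 members with a symbol were given no role. How this RNA came into the library was not tested. Members that digest and absorb numbered 9. Besides FABP2 and ALPI these were the disaccharidases LCT (lactase) and SI (sucrase-isomaltase), TMPRSS15 (enteropeptidase, which activates trypsinogen), the dipeptidase DPEP1, the phospholipase PLB1, BCO1 (which cleaves carotene to retinal) and the calcium-binding protein S100G. LCT had 213 and SI had 90 reads in cow 912, and neither had a read in any other library. Their levels in cow 912 were 7.78 and 3.29 CPM, at least 1602-fold and 677-fold above the floor of the other libraries. BCO1 had 1282 of its 1290 reads in cow 912 (99.4%) and stood at 46.8 CPM there, against 0.11 CPM in the next library. TMPRSS15 had 941 reads in cow 912 and 3 elsewhere, and DPEP1 had 192 and 1.

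The remaining pair in this group was also read at a low level elsewhere. S100G (ENSBTAG00000017020) reached 176 CPM in cow 912. In the other 6 cows of GLY_LC it lay between 0.106 and 2.89 CPM (median 1.24). The range was 0.143 to 1.47 CPM in GLY_HC (median 0.453), 0.149 to 1.196 in CON_HC (median 0.666) and 0.121 to 1.46 in CON_LC (median 0.902). S100G was thus read in all 30 other libraries, and the 4 groups overlapped. PLB1 reached 40.7 CPM in cow 912 with 86.5% of its reads, and the highest other value was 0.697 CPM in GLY_HC cow 152.

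Members of epithelial structure and surface numbered 5 and ranged from 28 to 686 reads in cow 912. Besides KRT20 and MUC13 they were GPA33 (110 of 111 reads), a surface antigen of the gut epithelium, MISP (274 of 325), which organises actin, and the cadherin CDH16 (28 of 31), better known from the kidney. A set of 5 members is known from goblet and crypt cells, with CLCA1 (136 reads), SPINK4 (181), REG4 (64 of 68), TFF2 (31 of 34) and the crypt protein OLFM4 (315 of 328). CLCA1 and SPINK4 had no read in any other library. Of 7 tested crypt and stem cell genes that were not members, 1 was highest in cow 912, and their sum was 19.5 CPM there against a median of 35.0 in the other cows. LGR5 (1.17 CPM) and RNF43 (2.12 CPM) were lower in cow 912 than in any other library. CLCA4, a relative of CLCA1 on the list for large intestine, had 1091 reads in cow 912 and 1 elsewhere. GUCA2B, the hormone uroguanylin that acts on the cyclic GMP pathway of enterocytes, had 53 of 64 reads in cow 912 (82.8%, exact 95% interval 71.3% to 91.1%). PRKG2, a kinase that cyclic GMP activates, had 38 of 47.

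Hormone-secreting cells of the gut were represented by 3 members. GIP, an incretin made by the duodenum and jejunum, had 213 reads, and SST (somatostatin) had 52, all of them in cow 912. CHGA, a granule protein common to endocrine cells, had 168 of its 185 reads there. Of 6 tested genes on the enteroendocrine list that were not members, 2 were highest in cow 912 (33.3%, against 15.02% of all tested genes) and 1 was lowest there. The list without its members summed to 18.3 CPM in cow 912, against a median of 22.9 in the other cows. Genes of mucosal defence made up 12 rows of the table with 48 to 793 reads in cow 912. They included the antibacterial lectin REG3G (174 of 175 reads), the lysozyme LYSB (61 reads), the secreted phospholipase PLA2G2A, which kills bacteria, the chemokine CCL11 (78 of 80), and IL22RA1 (55 of 65), the receptor chain for interleukin-22. PLA2G2A stood on 2 rows with 793 and 113 reads in cow 912. How alike these 2 rows are in sequence was not checked, so how reads were divided between them is uncertain.

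The wall below the mucosa was represented by smooth muscle, mesenchyme and neurons. ACTG2 (ENSBTAG00000015441), the gamma actin of visceral smooth muscle, was the member with the most reads, 9680 of 10201 (94.9%). It stood at 353 CPM in cow 912, between 0.236 and 2.01 CPM in the other 6 cows of GLY_LC (median 1.48), and between 0.179 and 1.91 CPM in the other 3 groups. CNN1 (ENSBTAG00000011207), the smooth muscle protein calponin, stood at 124 CPM in cow 912 with 88.2% of its reads, and the next value was 4.84 CPM in CON_LC cow 103. The mesenchymal members were HAND1 (67 reads, none elsewhere), MAB21L2 (82 of 94) and the BMP antagonist GREM1 (33 of 41). A gut mesenchyme list written after the values were seen held 3 further tested genes. Of these, 1 was highest in cow 912 (33.3%, against 15.02% of all tested genes), NKX2-3 with 24 of 57 reads. HAND2 was highest in GLY_LC cow 42 and FOXF1 in CON_LC cow 166. Of genes with fewer reads, FOXF2 had 18 of 19 in cow 912, and BARX1 and FOXL1 had none there. The neuronal members were VIP (69 of 77 reads), a peptide transmitter of gut neurons, and ISLR2 (41 of 49).

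**Figure D3:**
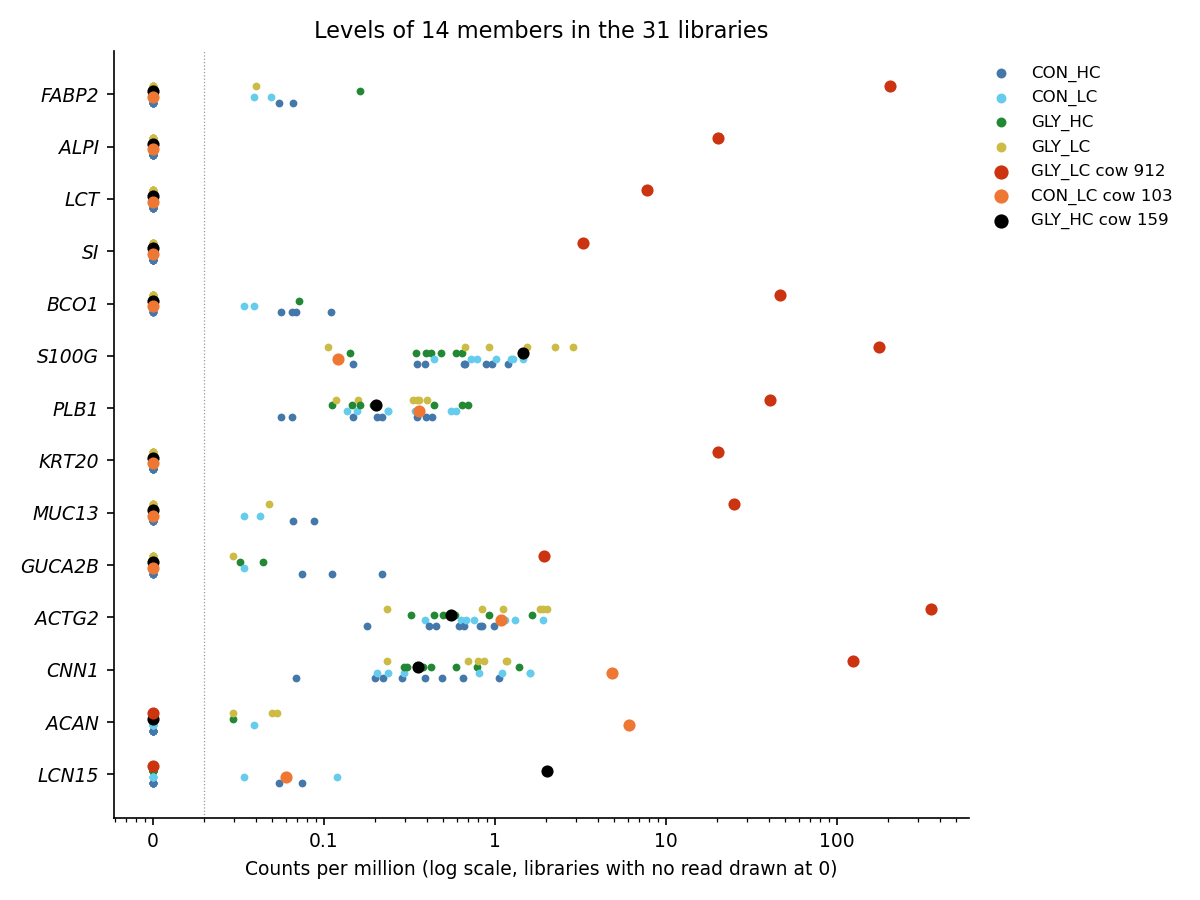
Level of 14 members in every library, in CPM on a log axis with libraries without a read drawn at 0. Each point is 1 cow, coloured by feeding group, and the larger points mark cows 912, 103 and 159. Cow 912 lies apart for the upper 12 genes, cow 103 for ACAN and cow 159 for LCN15.

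Of the 55 members of cow 912 that carry a symbol, 12 were given no role. These include CLCA4, SPINK1 (475 of 478 reads), a trypsin inhibitor, ATP6V1C2 (809 of 877), a subunit of the proton pump, and CKMT1B (452 of 501), a mitochondrial creatine kinase. Of the 18 members without a symbol in cow 912, the highest had 4069 reads of 4541 and the next had 1817 of 1819.

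At the edge of the rule, GREM1 (80.5%), PRKG2 (80.9%) and ANXA10 (82.0%, 50 of 61 reads) were just inside. The genes just outside were HTR4 (32 of 41 reads, 78.0%) and RHBDL2 (81 of 103, 78.6%), both in cow 912, and THBS4 (816 of 1035, 78.8%) in CON_LC cow 103. Below the threshold, 85 genes had 50% to under 80% of their reads in 1 library, of which 59 were in cow 912, 9 in CON_LC cow 941, 6 each in CON_LC cows 103 and 166, 2 in GLY_HC cow 154, and 1 each in GLY_LC cows 209 and 544 and CON_HC cow 170.

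Marker genes that were not members were then read in all libraries. Of 22 further enterocyte genes tested, 9 (40.9%) had their highest level in cow 912, against 15.02% of all tested genes. The median difference of cow 912 from the other cows' median was 0.97 on the log2 scale over these 22, and 0.01 over all genes. Genes of the brush border and of retinol uptake were among the 9. VIL1 (villin, which bundles actin in microvilli) stood at 29.4 CPM in cow 912 and at most at 1.97 elsewhere. MYO1A, the motor protein of microvilli, stood at 17.2 CPM against at most 1.41. RBP2, which carries retinol in enterocytes, stood at 90.4 CPM against at most 2.80. Some enterocyte genes that every other liver expressed were also highest in cow 912, with LGALS4 at 68.1 CPM against 16.97 to 36.9 elsewhere, HEPH at 11.9 against at most 8.95 and DGAT1 at 29.98 against at most 28.9. Other such genes lay below the median of the other cows, as did TREH (165 CPM against 188) and MGAM (65.0 against 99.3). The sum over the 22 genes, 966 CPM in cow 912, was close to the highest of the other livers, 976 CPM.

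The ileum and the large intestine were looked at by their own lists. CUBN, the receptor for vitamin B12 bound to intrinsic factor, stood at 20.4 CPM in cow 912 and at most at 2.28 elsewhere, and AMN, its partner, at 1.24 against at most 0.394. FABP6, the bile acid carrier of the ileum, had 8 reads in cow 912 and was also highest there. Thus 3 of 3 tested non-members on the ileum list were highest in cow 912, against 15.02% of all tested genes. On the large intestine list, the member CLCA4 had 1091 of its 1092 reads in cow 912. Of 4 tested non-members on that list, 0 were highest there, against 15.02% of all tested genes. HOXB13, HOXD13 and CA1, also on it, had no read in any library, a count that allows up to 3 reads. Among stomach genes, the member TFF2 had 31 of 34 reads in cow 912. PGC had 2 reads and TFF1 had 7, all in cow 912, and CLDN18 and GKN2 had none in any library. Of 2 tested non-members on the stomach list, 0 were highest in cow 912, against 15.02% of all tested genes. Without its member the list summed to 1.02 CPM there, against a median of 1.33 and at most 2.76 in the other cows. MUC2, CDX1, CDX2 and DPP4 were not analysed here.

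Smooth muscle genes outside the members were highest in cow 912 for 5 of 5, against 15.02% of all tested genes. MYH11, the smooth muscle myosin, stood at 737 CPM against at most 60.8 elsewhere, and DES (desmin) at 509 against at most 298. Neuronal genes were read at low numbers. On a list of enteric neuron genes written after the values were seen, all 10 tested genes other than VIP and ISLR2 were highest in cow 912, among them TAC1 (45 of 64 reads), PENK (57 of 79) and SNAP25 (28 of 36). JCHAIN, which joins the chains of secreted antibodies, stood at 158 CPM in cow 912 and at most at 58.6 elsewhere. It was the only 1 of 15 tested lymphocyte genes that was highest there (6.67%), and the median difference over the 15 was -0.27 on the log2 scale. Of 5 tested goblet cell genes outside the members, 2 were highest in cow 912 (40%, against 15.02% of all tested genes). These were TFF3 (8.43 CPM against at most 1.72) and AGR2 (7.01 against at most 0.908). The median difference over the 5 was 0.15 on the log2 scale. GALNT12 stood at 9.38 CPM against a median of 8.67 and at most 10.6 elsewhere, and ZG16 had no read in cow 912.

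**Figure D4:**
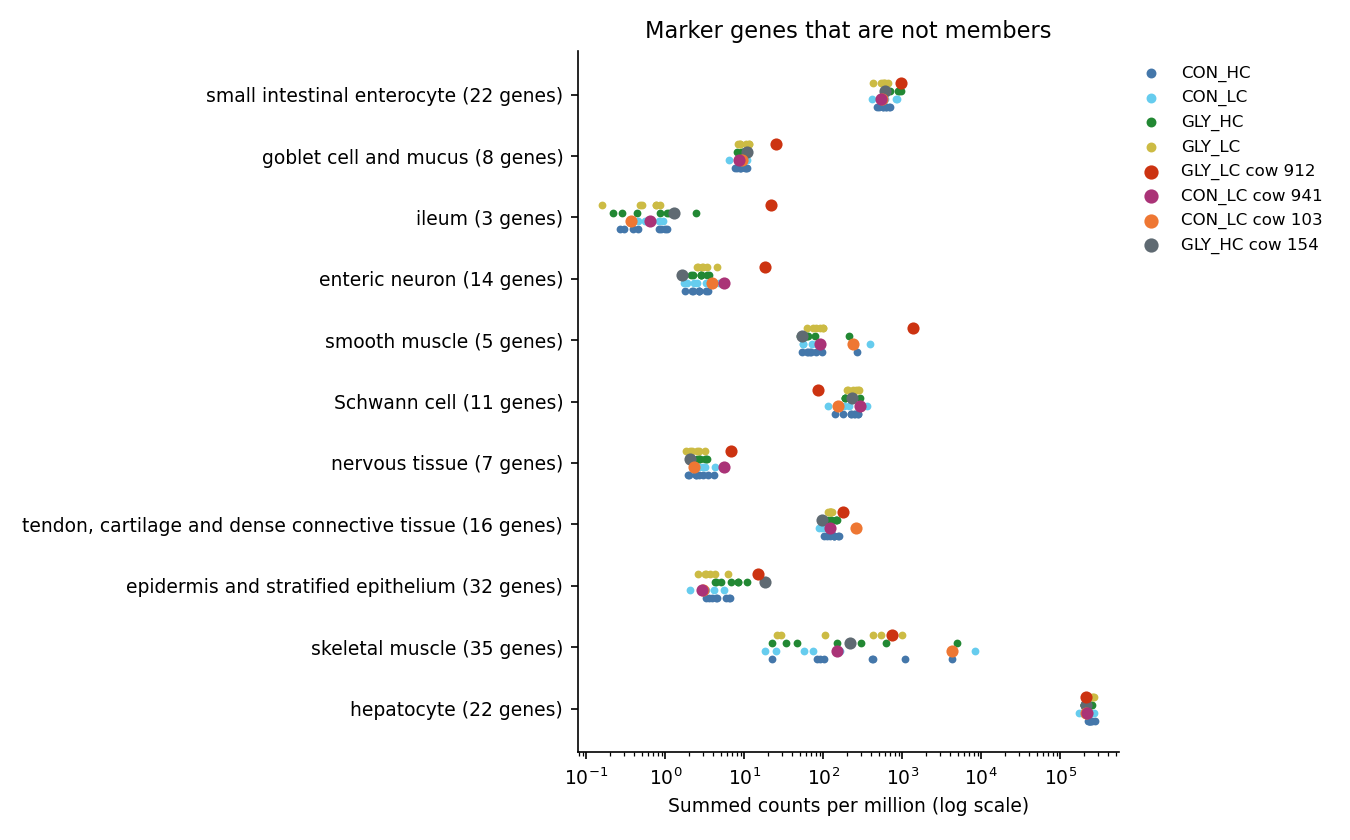
Summed CPM of marker genes that are not members (x axis, log scale) for 11 lists (y axis), 1 point per cow. Cow 912 is highest for ileum (21.9 CPM over 3 genes, of which CUBN gives 20.4), enteric neuron (18.4 CPM) and smooth muscle (1360 CPM). CON_LC cow 103 is highest for tendon, cartilage and dense connective tissue (259 CPM) and CON_LC cow 166 for skeletal muscle (8434 CPM). The hepatocyte sums run from 174902 to 273882 CPM. The lists for enteric neuron, Schwann cell and tendon, cartilage and dense connective tissue were written after the values were seen.

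The remaining libraries held other genes. The 2 members of CON_LC cow 941 are counted here without their values. A Schwann cell list was written after the values were seen. Of its genes below the threshold, SOX10 (51 of 87 reads), CDH19 (97 of 182), GFAP (56 of 76) and GJC3 (25 of 33) were highest in cow 941. So were MAL (71 of 174) and S100B (248 of 2574). PMP22 was highest in cow 912 (8.80 CPM against at most 3.61), NCAM1 in cow 103, MBP in CON_LC cow 145 and PMP2 in CON_LC cow 166. The neuronal genes SNAP25, PRPH and TAC1 were not highest in this library. The sum over the Schwann cell list without members was highest in CON_LC cow 60 (353 CPM), since it is made up largely of ERBB3, which was read in all livers.

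In CON_LC cow 103 the member was ACAN (ENSBTAG00000016158), aggrecan, the large proteoglycan of cartilage. It had 101 of 106 reads there (95.3%, exact 95% interval 89.3% to 98.5%), which was 6.11 CPM, and 0.053 CPM in the next library. THBS4, a matrix protein of tendon and muscle, stood at 49.4 CPM in cow 103 against at most 3.30 elsewhere. COL1A1 (434 CPM against at most 42.4) and COL1A2 (521 against at most 66.2), the chains of type I collagen, had 56.1% and 50.3% of their reads in cow 103. MXRA5 (342 of 544 reads), CTHRC1 (72 of 107), FAP (73 of 168) and FMOD (43.1 CPM against at most 22.2) were also highest in this library. This connective tissue list was written after the values were seen, and its 11 tested non-members did not all follow. PRG4 and TNC, read in all livers, were highest in GLY_HC cow 37 and GLY_LC cow 912. MKX, HAPLN1 and CHAD were highest in CON_HC cows 7, 134 and 170, and KERA in CON_LC cow 941. Of all tested genes, 3.73% were highest in cow 103. The cartilage and tendon genes MATN1, COMP and TNMD had 8, 11 and 1 reads in all 31 libraries together. The same library had skeletal muscle genes at 4254 CPM, against a median of 149.7.

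In GLY_HC cow 159 the member was LCN15 (ENSBTAG00000001206), a lipocalin, with 40 of 46 reads (87.0%, exact 95% interval 73.7% to 95.1%). That was 2.02 CPM against 0.120 in the next library, CON_LC cow 169. In GLY_HC cow 154 the member had no symbol and 62 of 69 reads. Neither of these 2 members was on a marker list. Cow 154 was the highest library for the epidermis list (18.1 CPM, against 15.1 in cow 912 and a median of 4.25), with the non-members KRT1 (143 of 241 reads), S100A7 (83 of 123), KRT10 (99 of 604) and DSG1 (10 of 17) at their highest there.

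How the members entered the comparisons of the feeding groups was examined in 1 edgeR model of the 4 groups over 15916 genes with at least 20 reads, all 78 members among them. Calls needed a p under 0.05 and an adjusted p (Benjamini-Hochberg) under 0.1. In GLY_HC versus GLY_LC, 32 genes (0.201% of those tested) were called, 26 of them (0.163%) lower in GLY_HC, and 12 of these 26 were members. In GLY_LC versus CON_LC, 10 genes were called (0.0628%), 9 of them (0.0565%) higher in GLY_LC, and 8 of these 9 were members. All called members were members of cow 912. Both comparisons contain GLY_LC with cow 912, and the members were chosen on the same counts, so nothing is read from these shares. In CON_HC versus CON_LC and in GLY_HC versus CON_HC, which do not contain cow 912, edgeR called 0 genes (0% in each), with 948 and 464 genes at an unadjusted p under 0.05.

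The fitted differences were large and imprecise. FABP2 had a log2 fold change of -9.77 (SE 1.84, edgeR adjusted p = 0.0344) in GLY_HC versus GLY_LC and of 10.69 (SE 1.99, adjusted p = 0.0832) in GLY_LC versus CON_LC. ACTG2 had -6.30 (SE 1.15, adjusted p = 0.0344) and 5.70 (SE 1.1, adjusted p = 0.0832). These are group values that rest on 1 cow, and for genes at 0 elsewhere the fitted size depends on the prior count. OLFM4, BCO1, S100G and SMIM24 were also called in both comparisons, and CNN1, MUC13, PLB1, CHGA and CKMT1B in GLY_HC versus GLY_LC alone, and ATP6V1C2 (adjusted p = 0.0871) in GLY_LC versus CON_LC alone. Whether the comparisons differed was not tested.

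Without cow 912, 15 of the 78 members still had at least 20 reads and were tested. Then 0 genes were called in GLY_HC versus GLY_LC and 0 in GLY_LC versus CON_LC (0% in each), with 1318 and 485 genes at an unadjusted p under 0.05. For S100G, the log2 fold change in GLY_HC versus GLY_LC was -1.30 (SE 0.49, edgeR unadjusted p = 0.0119, adjusted p = 0.491) without cow 912, in place of -5.51 (SE 1.03, adjusted p = 0.0344). ACTG2 fell to -0.96 (SE 0.40, unadjusted p = 0.0219, adjusted p = 0.534) in the same comparison. In CON_HC versus CON_LC, 7 genes (0.0444%) were called once cow 912 was out of the model, none of them a member.

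DESeq2, the tool of the study, treated the members differently. Its default replaces single counts that lie far from their group, which happened for 300 genes, among them 76 of the 78 members and 71 of the 73 of cow 912. It called 143 genes (0.898%) in GLY_HC versus GLY_LC, 4 (0.0251%) in GLY_LC versus CON_LC and 27 (0.17%) in CON_HC versus CON_LC, with 0 members in each. An adjusted p was missing for 72, 22 and 71 members. With outlying counts kept, 230 (1.45%) genes were called in GLY_HC versus GLY_LC, an alternative chosen once the values had been seen. Of these, 135 (0.848%) were lower in GLY_HC and included 31 members. In GLY_LC versus CON_LC 61 genes (0.383%) were called, and the 57 higher ones (0.358%) included 31 members. It then also called 34 genes (0.214%) in CON_HC versus CON_LC with 2 members, and 3 genes (0.0188%) in GLY_HC versus CON_HC, all 3 of them members.

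**Figure D5:**
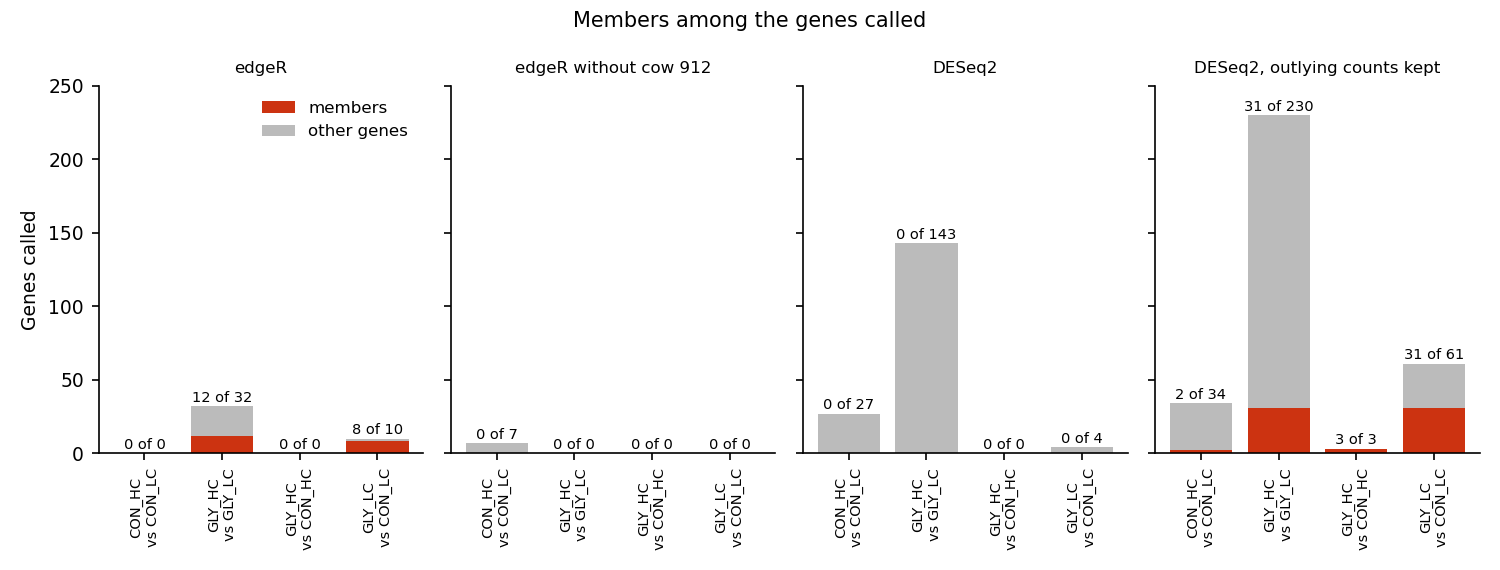
Number of genes called (y axis) in the 4 comparisons (x axis) by edgeR, edgeR without cow 912, DESeq2, and DESeq2 with outlying counts kept. The red part and the printed numbers give the members among them, from 12 of 32 by edgeR in GLY_HC versus GLY_LC to 0 of 143 by DESeq2.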

How the data were processed

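Total RNA of 31 liver biopsies was sequenced from TruSeq Stranded mRNA libraries. Per the labels and the methods, the authors trimmed reads with Trim Galore at a Phred score of 20, mapped them to the bovine build UMD3.1 (HISAT2 2.1.0) and took per-gene counts of unique alignments with HTSeq 0.8.0. The strand setting is not given in the sources used here. The deposited raw counts of 24616 genes were used for all values. The deposited normalized signal (15916 genes), in which the authors divided the counts by 1 DESeq2 1.20.0 size factor per cow, was used for an alternative share only. The labels gave group and cow number of every column.

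Shares used raw counts, and CPM used edgeR's TMM factors. Groups were compared with edgeR 4.0.16 (quasi-likelihood F test, R 4.3.3), with DESeq2 1.42.0 as alternative, in 1 model of 4 groups without covariates, and the scripts were tested on simulated data. Log2 differences between cow 912 and the other cows' median used a pseudocount of 0.5 CPM. Alternatives changed the share, the read minimum, normalization, filter, fit and tool. Python 3.11.15 was used for the rest.

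The members, the 26 marker lists and the tests were chosen with earlier results of these data known. Of the 58 distinct member symbols, 58 were found in a RefSeq gene table. Named by rule were the 6 with a symbol of the 8 members with the most reads in cow 912, its members on the enterocyte list, MUC13, the top member of each other library with a name, and the 3 genes on either side of 80%. All other genes named, the role groups of members and 6 further lists (enteric neuron, gut mesenchyme, Schwann cell, dense connective tissue, acute phase rising and falling) were chosen after their values were seen. Members without a symbol were counted and not looked up. Some genes covered by the rule or the lists, the members of cow 941 among them, are not reported here. Promoter motifs and gene coordinates were not analysed here. Each cow gave 1 library, and intervals cover counting error only.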

Additional observations from a re-analysis of the deposited data

Results flagged for a closer look

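In each feeding group, the gap between the most extreme cow and its neighbour was divided by the range of the group (Dixon's ratio), for 53 sets of values. Chance alone exceeds the 95% limit in about 1 of 20 sets. The limit was exceeded in 28 sets.

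Of these, 17 were named members, for which the selection itself makes 1 cow stand apart. In GLY_LC, where cow 912 was the highest, the ratio was 1 for FABP2, BCO1, ALPI, SI, KRT20 and LCT, 0.998 for MUC13, 0.995 for ACTG2, 0.993 for PLB1, 0.992 for CNN1, 0.985 for GUCA2B and 0.984 for S100G. It was 0.963 for PRKG2, 0.960 for GREM1 and 0.913 for ANXA10. The ratio was 1 for LCN15 in GLY_HC (cow 159) and 0.994 for ACAN in CON_LC (cow 103).

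Sums of marker genes that were not members exceeded the limit in 9 sets. In GLY_LC, cow 912 was the highest for smooth muscle (0.971, 1360 CPM against 99.7 in the next cow), goblet cell and mucus (0.826, 25.2 against 11.3), nervous tissue (0.739, 6.79 against 3.13), epidermis and stratified epithelium (0.715, 15.1 against 6.12) and small intestinal enterocyte (0.578, 966 against 657). CON_HC cow 123 was the highest of its group for smooth muscle (0.799) and skeletal muscle (0.750), and GLY_HC cow 127 for smooth muscle (0.830) and skeletal muscle (0.879). In cows 123 and 127 skeletal muscle genes summed to 4263 and 4989 CPM.

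The number of assigned reads stood apart for CON_HC cow 7 (0.612) and GLY_LC cow 209 (0.682), neither of which held a member.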

How the results depend on the processing

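Members numbered 47 at a share of 95% and 44 at a minimum of 100 reads (46 and 41 in cow 912). The other alternatives gave 57 to 107 members with 88.9% to 96.5% of them in cow 912. Cows 154 and 159 held 0 members at 90%, at 95% and at 100 reads. Cow 103 held 3 at 70%, and 2 by shares of CPM or of the authors' normalized values. Cow 941 held 5 at 70%, 1 at 90%, 0 at 95%, and 5 or 4 at a minimum of 10 or 20 reads. Of 36 recomputed shares of named members, 28 stayed within the exact interval, and the lowest was 74.3%.

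In GLY_HC versus GLY_LC, genes (members) called were 66 (19) with RLE normalization, 11 (4) with filterByExpr, 8 (5) with a robust fit, 0 (0) without cow 912, 143 (0) by DESeq2, 230 (31) by DESeq2 with outlying counts kept and 24 (0) by DESeq2 without cow 912. In GLY_LC versus CON_LC they were 0 (0) with filterByExpr, with a robust fit and without cow 912 in either tool, 4 (0) by DESeq2 and 61 (31) with outlying counts kept. In CON_HC versus CON_LC they were 7 (0) without cow 912, 27 (0) by DESeq2, 34 (2) with outlying counts kept and 52 (0) by DESeq2 without cow 912. In GLY_HC versus CON_HC, 3 (3) were called with outlying counts kept. With filterByExpr 4 members were tested. Other causes were not tested. DESeq2 with outlying counts kept or without cow 912 was added after the data were seen. No paired analysis was possible because the cow numbers are not shared between groups. Members near 30 reads have wide intervals, such as 65.1% to 91.2% for GREM1.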

Other observations

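Genes of the acute phase response, which the liver raises or lowers in inflammation, were read in the library that held most members. Of 16 genes known to rise, 11 (68.8%) had their highest level of all 31 libraries in GLY_LC cow 912, against 15.02% of all tested genes. The median difference of the 16 from the other cows was 1.34 on the log2 scale. HP (haptoglobin) stood at 19490 CPM there, with a median of 277.6 and at most 6568 CPM in the other cows. LBP, which binds bacterial lipopolysaccharide, stood at 1641 CPM against at most 520 elsewhere, and HAMP, the iron hormone hepcidin, at 669.6 against at most 364. The metallothioneins MT1A (1850 CPM against at most 239) and MT2A (1143 against at most 218) were among the 11. SAA3 (1.83 CPM against 7.49), C3 (16748 against 21231) and ORM1 (4200 against 5264) lay below the median of the other cows. CRP (2837 against 2381) and M-SAA3.2 (0.292 against 0.152) lay above it without being highest. All 5 genes known to fall were lowest in cow 912, among them ALB at 42897 CPM (median of the others 107020) and TTR at 2416 (5308). The share of all genes that were lowest in this library was not counted. The list was written after these values were seen, and the relation of this pattern to the gut genes of the same library was not tested.

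Skeletal muscle genes gave no member, although their sum ran from CON_LC cow 166 with 8434 CPM, through GLY_HC cow 127 with 4989, CON_HC cow 123 with 4263 and CON_LC cow 103 with 4254, down to a median of 149.7 CPM. As several libraries shared these reads, no gene of the 35 on the list reached 80% in 1 of them. MYH7, a slow muscle myosin, had 37.2% of its reads in cow 166.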
